A study of Mus musculus with 12 samples.

Results

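The mouse genome carries several copies of the gene for tRNA-Glu with anticodon TTC, and 2 of them are described here. They were chosen by position from 532 stretches of the genome over which ChIP-seq coverage was deposited. One stretch, chr14:79881325-79881696, lies in the first intron of Elf1, which encodes an ETS-family transcription factor, with its middle 435 bp from the start of Wbp4, which encodes a protein of the splicing machinery. The other, chr1:34491507-34491878, lies between protein-coding genes, 4824 bp from the start of Ccdc115, which encodes a factor of proton pump assembly. They are called the Elf1-intron gene and the Ccdc115-side gene. The pair was picked with the levels of RNA polymerase III (Pol III), RNA polymerase II (Pol II) and the histone mark at these stretches already known, so those levels are given as a description without a test.

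Livers came from male C57/BL6 mice aged 12 to 14 weeks, held for 2 weeks under 12 h of light a day and, for 7 days, given food only from Zeitgeber time 12 to 24 h (Zeitgeber time is counted from lights on). No genotype or treatment differed between groups. All 12 libraries share this liver chromatin and differ in the antibody: RPC1 and RPC4, both subunits of Pol III, RPB2, a subunit of Pol II, a pair of histone antibodies, and input chromatin without immunoprecipitation, each with 2 libraries. The labels name 5 mice at time 2 h and 5 at time 26 h as biological replicate, without tying either time to a replicate number or saying if mice were pooled, so errors given here measure the spread between libraries, which may be partly technical. Whole liver was used, so the coverage is an average over its cell types. The labels of the histone libraries contradict themselves, since the antibody recorded is H3K36me3 where the title says H3K4, and the reverse. The names H3K4-titled and H3K36-titled used here follow the titles.

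Pol III transcribes tRNA genes from promoter elements inside the gene, the A box and the B box, which the factor TFIIIC binds before TFIIIB recruits the polymerase to the start, and it stops at a run of T residues after the gene. RPC1 is its largest, catalytic subunit, and RPC4 a smaller subunit that takes part in termination. Pol II transcribes protein-coding genes, and trimethylation of histone H3 at lysine 4 marks the nucleosomes just inside active Pol II promoters, while trimethylation at lysine 36 marks the bodies of transcribed genes. A tRNA-Glu with anticodon TTC reads the glutamate codons ending in A, and also G by wobble.

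The sequences of both genes are shown because the pair differs in place and not in gene sequence. They are mm9 sequence from the NCBIM37 reference, with the tRNA gene in capitals, 30 bases before it and 40 after it, read along the tRNA's direction.
Elf1-intron gene, chr14:79881445-79881586, plus strand: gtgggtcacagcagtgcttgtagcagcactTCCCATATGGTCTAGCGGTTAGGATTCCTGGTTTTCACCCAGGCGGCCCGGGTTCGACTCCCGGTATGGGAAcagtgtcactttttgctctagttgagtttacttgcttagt
Ccdc115-side gene, chr1:34491617-34491758, minus strand: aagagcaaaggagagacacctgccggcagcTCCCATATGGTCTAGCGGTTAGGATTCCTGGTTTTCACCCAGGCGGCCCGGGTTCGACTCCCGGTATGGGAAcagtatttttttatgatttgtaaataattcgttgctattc

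The 72 bases of the gene were identical in both copies, at chr14:79881475-79881546 and chr1:34491657-34491728, and each folded into a cloverleaf with 21 base pairs in its 4 stems. The flanks were not alike. Compared base by base without gaps, 38 of the 150 bases upstream (25.3%) and 51 of the 150 downstream (34%) were the same. A run of 5 T residues began 9 bases after the end of the Elf1-intron gene, and a run of 7 began 5 bases after the end of the Ccdc115-side gene. The next line shows the shared gene with its anticodon, positions 34 to 36 counted from 1 at the 5′ end, in capitals.
tRNA-Glu (TTC), both copies: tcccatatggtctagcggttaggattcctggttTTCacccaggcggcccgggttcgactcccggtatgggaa

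The letters GGTTCGA, which lie in the B box region, are at positions 51 to 57 of both copies. A search for these letters on both strands found them in 68 of the 184 stretches of the members' length of 372 bp (37.0%), and in 214 of 379 stretches predicted to hold a single tRNA gene and nothing else (56.5%). No overlap with another motif was counted.

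The surroundings of the genes differed in their annotation and base composition. By the GENCODE vM1 annotation of mm9, the Elf1-intron gene begins 30 bases after the end of the first exon of Elf1 (ENSMUSG00000036461.8), in which the first 120 bases of its stretch lie. Elf1 starts 474 bp before the tRNA gene and runs in the same direction, and Wbp4 (ENSMUSG00000022023.5) starts 400 bp from it and runs the opposite way. The Ccdc115-side gene is in no annotated protein-coding gene, and other gene types were not searched. The 3′ end of Ccdc115 (ENSMUSG00000042111.8) is 1787 bp from it and its start 4789 bp. Imp4 (ENSMUSG00000026127.7), which encodes a protein of the U3 complex that processes ribosomal RNA, starts 4968 bp from it. The Elf1-intron stretch had a GC content of 65.1% (rank 58 of 532) with 34 CpG dinucleotides, and the Ccdc115-side stretch 50.8% (rank 132) with 22. The medians over all stretches were 46.7% and 12.

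The 4 Pol III libraries held the most reads over the 532 stretches, 82276 to 160705 equivalents of a 76 bp read. The H3K4-titled libraries held 17033 and 26665, RPB2 libraries 14779 and 13849, input libraries 3563 and 3365, and H3K36-titled libraries only 1754 and 1273. Reads outside the stretches are not in the files, so full depths are unknown. Coverage, in reads per base, was not scaled for depth, so levels are compared here between stretches of the same library. Because a read of 76 bases is longer than the 72-base gene, each such read over a gene reached into the flanks. This tells the copies apart except for reads that lie within the gene and the letters cagt, which follow it in both copies. Fractional coverage, left where reads were divided among copies, was found in RPC1 replicate 2, H3K4-titled replicate 1 and both RPB2 libraries. It covered 2 bases of a stretch in RPB2 replicate 1 and at most 75 of the 372 bases in the others. Where divided reads overlap, their fractions can add to whole numbers, so more bases may hold divided reads.

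Pol III covered both copies well, and the Ccdc115-side gene somewhat more. The Elf1-intron stretch had a mean coverage of 75.3 and 52.8 reads per base in the RPC1 libraries and 97.2 and 105 in the RPC4 libraries (82.5 ± 23.5, SD, n = 4). The Ccdc115-side stretch had 125.6 and 79.5 with RPC1 and 129.8 and 121.9 with RPC4 (114.2 ± 23.3, n = 4). The Ccdc115-side value was the higher in all 4 libraries, although the ranges over libraries of different depth overlap. Within libraries the log2 ratio of the Elf1-intron to the Ccdc115-side stretch was -0.74 and -0.59 for RPC1 and -0.42 and -0.22 for RPC4, on a log2(coverage + 0.1) scale, a mean of -0.49 ± 0.23 or a fold of 0.712. By mean Pol III coverage the stretches ranked 117 and 76 of 532, at 5.43 and 7.52 times the median stretch.

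Over the tRNA gene itself the Pol III levels of the copies did not separate. Mean coverage of the 72 bases was 158.3 ± 40.9 reads per base at the Elf1-intron gene and 166.4 ± 38.8 at the Ccdc115-side gene (n = 4). The within-library log2 ratio was -0.08 ± 0.20, and it was below 0 in both RPC1 libraries and RPC4 replicate 1 and above 0 in RPC4 replicate 2. Over the flanks it was -0.69. The downstream flank was the higher at the Elf1-intron gene in all 4 libraries, so the lower value over its whole stretch came from the upstream flank, with 41.3 reads per base against 125.3, and within that mostly from the first 90 bases, with 7.14 against 98.8.

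RPB2 went the other way. The Elf1-intron stretch had 27.5 and 37.1 reads per base (32.3 ± 6.74, n = 2) and the Ccdc115-side stretch 13.2 and 13.4 (13.3 ± 0.161). Both RPB2 libraries gave the Elf1-intron stretch the higher value, and the groups did not overlap. The log2 ratios were 1.06 and 1.46, a mean fold of 2.39. Over the gene alone the fold was 4.01, with 45.4 reads per base against 11.3. The Elf1-intron stretch ranked 10 of 532 for RPB2, at 17.01 times the median stretch, and the Ccdc115-side stretch ranked 32, at 7.00 times the median. RPB2 coverage at the copy farther from an annotated protein-coding gene start was thus also several times that of the median stretch.

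The H3K4-titled libraries gave the widest gap. The Elf1-intron stretch had 66.2 and 111.8 reads per base (89.0 ± 32.3, n = 2) and ranked 4 of 532, at 70.5 times the median stretch. The Ccdc115-side stretch had 11.4 and 18.1 (14.8 ± 4.79) and ranked 63, at 11.7 times the median. Both libraries had the Elf1-intron stretch far above the other, with log2 ratios of 2.53 and 2.62, a mean fold of 5.95. The fold was 16.7 over the gene itself and 4.59 over the flanks.

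Coverage in the remaining libraries was low at both copies. In input the Elf1-intron stretch had 0 and 1.12 reads per base, which is 0 and 5.5 read equivalents, and the Ccdc115-side stretch 2.45 and 0.613, or 12 and 3. By mean input coverage the Elf1-intron stretch ranked 440 of 532, at 0.542 times the median stretch, and the Ccdc115-side stretch 87, at 1.48 times. The input replicates ordered the copies in opposite ways. The H3K36-titled libraries had 0.409 and 0 reads per base at the Elf1-intron stretch and 0 and 0.204 at the Ccdc115-side stretch, which is at most 2 reads per library. At this depth no difference between the copies was detectable in either.

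**Figure D1:**
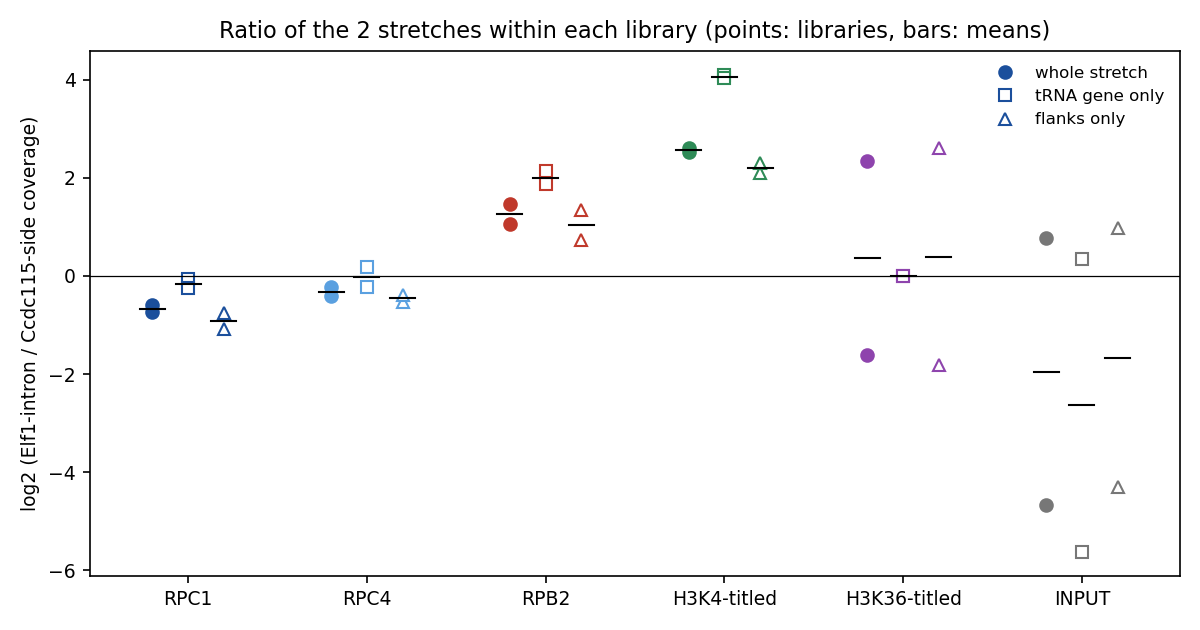
Within-library ratio of mean coverage of the Elf1-intron stretch to that of the Ccdc115-side stretch, on a log2(coverage + 0.1) scale, for each library (points) and the mean of its group (bars). Filled circles are the whole stretch, open squares the tRNA gene only and open triangles the flanks only. Over the whole stretch the 4 Pol III libraries lie between -0.74 and -0.22, both RPB2 libraries above 1 and both H3K4-titled libraries near 2.5. Input and H3K36-titled libraries rest on at most 12 reads per stretch, and their whole-stretch ratios scatter.

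The copies also differed in where the coverage lay. Positions are given along the tRNA's direction, and a library's mean position is weighted by coverage and counted from the middle of the gene, negative values being upstream. At the Elf1-intron gene Pol III coverage averaged 41.3 reads per base in the 150 bp upstream, 158.3 in the gene and 87.4 in the 150 bp downstream. At the Ccdc115-side gene the same averages were 125.3, 166.4 and 78.0. On average Pol III coverage was thus highest in the gene at both copies, although in RPC1 replicate 1 the flank upstream of the Ccdc115-side gene was higher, with 175.9 against 167.3. The upstream flank was the lower at the Elf1-intron gene in all 4 libraries. At the Ccdc115-side gene it was the higher with RPC1 and in RPC4 replicate 1, and the lower in RPC4 replicate 2, with 95.2 against 127.2.

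RPB2 averaged 20.3, 45.4 and 38.0 reads per base upstream, in and downstream of the Elf1-intron gene. At the Ccdc115-side gene it averaged 22.5, 11.3 and 5.03. The upstream averages were close, but they hide a change along the flank. In its first 90 bases RPB2 averaged 5.29 reads per base at the Elf1-intron stretch and 21.7 at the other. From 57 to 27 bases before the gene it was 32.7 and 42.3 in the RPB2 libraries at the Elf1-intron stretch and 22.3 and 28.1 at the Ccdc115-side stretch. RPB2 was thus higher at the Elf1-intron copy from shortly before the gene on, and stayed so in and after it. In the Elf1 intron the RPB2 libraries differed downstream, with 28.8 reads per base in replicate 1 and 47.2 in replicate 2.

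H3K4-titled coverage averaged 25.4, 141.1 and 127.6 reads per base upstream, in and downstream of the Elf1-intron gene. It averaged 19.0, 8.38 and 13.6 at the Ccdc115-side gene, where the gene lay in a dip between higher flanks in both libraries. At the Elf1-intron gene no dip like this was seen over the gene, and coverage was high after it, but the libraries differed there. In replicate 1 it fell to 49.5 reads per base in the last 31 bases, and in replicate 2 it was still 148.1.

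**Figure D2:**
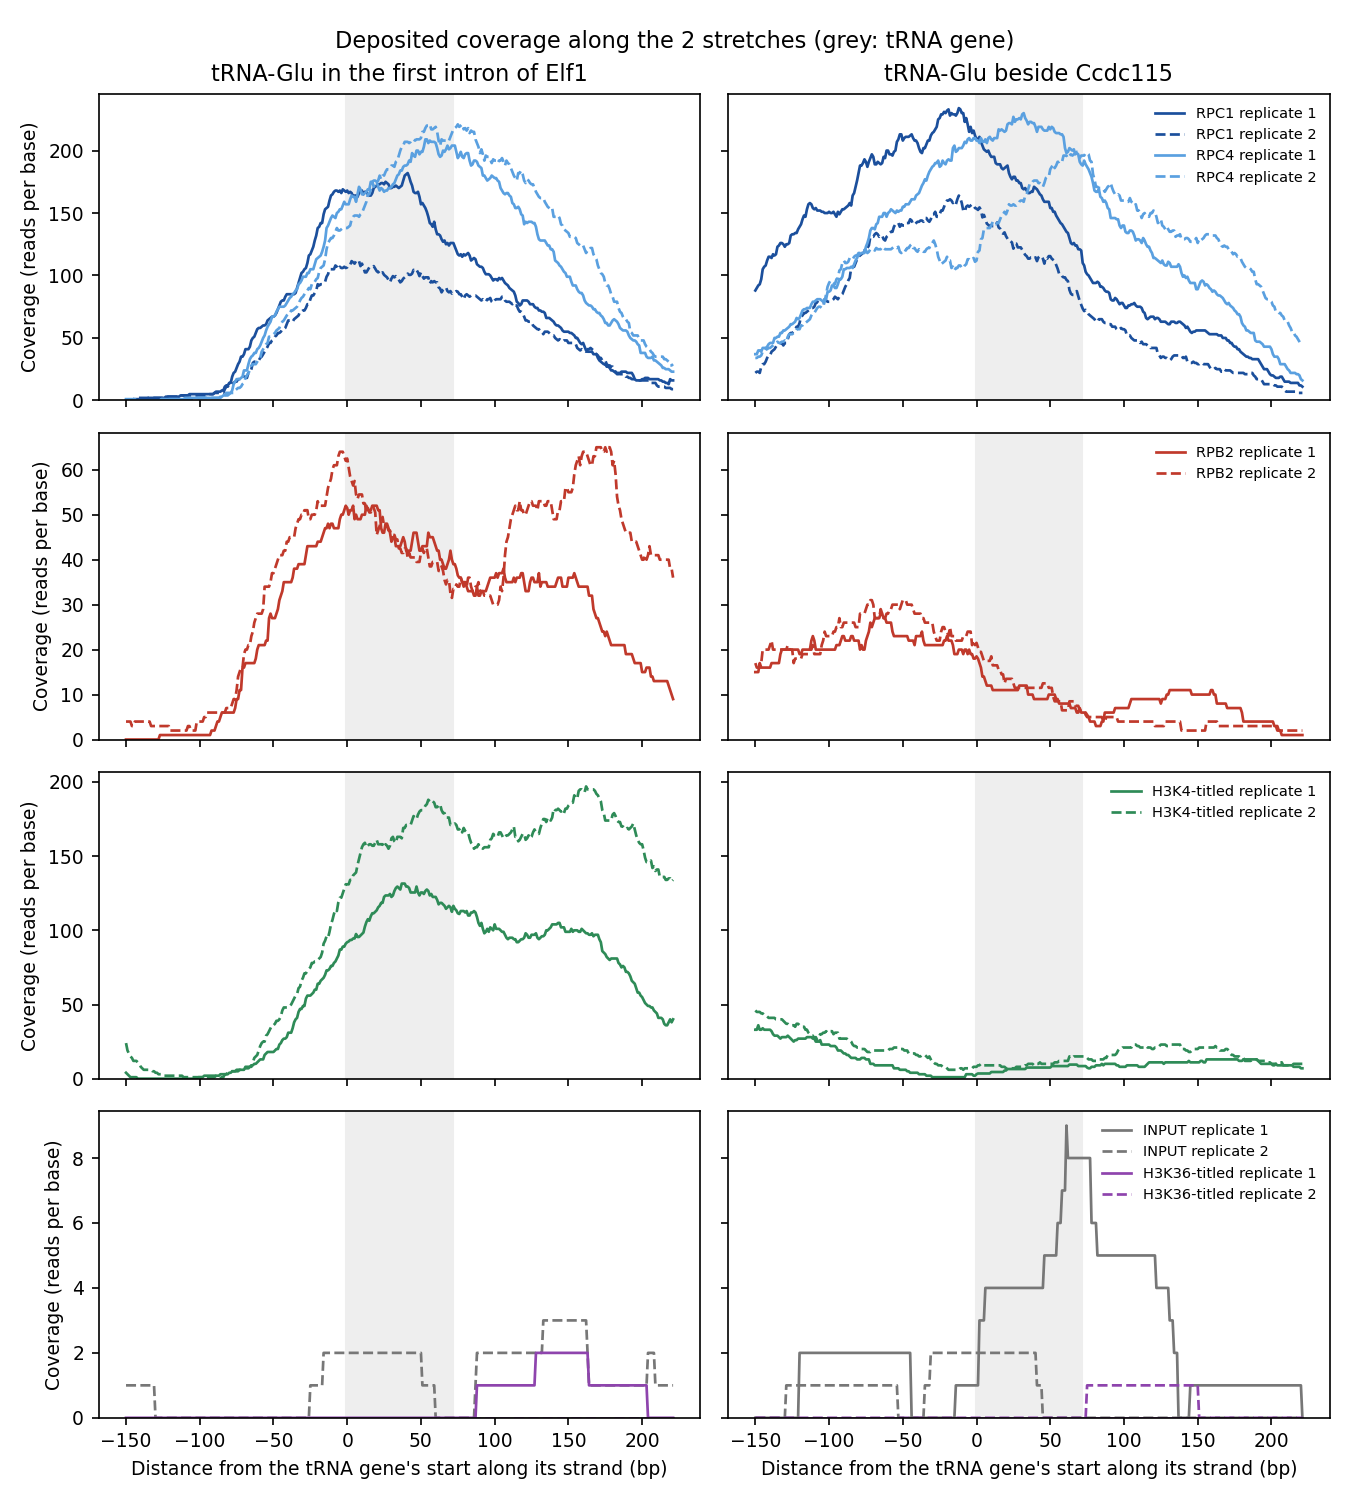
Deposited coverage per base (reads, linear axis, shared within a row) against distance from the start of the tRNA gene along its strand in bp, for each library at the Elf1-intron gene (left) and the Ccdc115-side gene (right), with the gene shaded grey. Pol III (top row) peaks over or next to the gene at both copies, RPB2 (red) is highest upstream of the gene at the right and extends over and past it at the left, and H3K4-titled coverage (green) is high over and after the gene at the left and dips over it at the right.

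The upstream end of the Elf1-intron stretch held almost no coverage in any library. Its first 90 bases, all in exon 1 of Elf1, held 0.796% to 4.40% of a library's coverage of the stretch in the 8 Pol III, RPB2 and H3K4-titled libraries, and 4.78% in the input library that had reads there. The same bases of the Ccdc115-side stretch held 16.0% to 47.0% in those 8 libraries. The GC content of these 90 bases was 83.3% at the Elf1-intron stretch and 57.8% at the other, and it reached 93.5% in the 31-base bin that ends 89 bases before the gene's start. The part of base composition in the low coverage was not tested. The low coverage enters each mean, ratio and position of this stretch that includes these bases. How far it touches the values of the gene alone was not tested.

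Mean positions at the Elf1-intron gene were 8.56 and 15.0 bp with RPC1, 29.1 and 38.1 bp with RPC4, 24.0 and 39.7 bp with RPB2 and 47.2 and 59.9 bp with the H3K4-titled libraries. All lay downstream of the gene's middle. The H3K4-titled mean exceeded the Pol III mean by 30.9 bp, and the groups did not overlap. The RPB2 mean exceeded it by 9.19 bp, and the groups overlapped. The Pol III mean pools RPC1 and RPC4. Both RPB2 positions were downstream of both RPC1 positions and overlapped those of RPC4.

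At the Ccdc115-side gene mean positions were -41.8 and -36.6 bp with RPC1, -8.55 and 10.9 bp with RPC4, -49.8 and -68.1 bp with RPB2 and -31.5 and -29.0 bp with the H3K4-titled libraries. The RPB2 mean differed from the Pol III mean by -39.9 bp without overlap, and the H3K4-titled mean position differed by -11.3 bp with overlap. Both H3K4-titled positions were downstream of both RPC1 positions and upstream of both RPC4 positions, so the sign depends on the subunit. By median position the H3K4-titled difference was -44.75 bp, and by position of highest coverage -168 bp, both without overlap. The highest H3K4-titled coverage lay at -183.5 and -185.5 bp, at the upstream end of the stretch. Coverage beyond that end is not in the files, so the -168 bp is no distance to a measured peak. These positions come from the coverage known when the pair was picked and are a description. A test would add nothing, since 2 libraries against 4 have 15 arrangements and give no two-sided exact p under 0.133. The RPC1 position was upstream of the RPC4 position at both copies in each library, a difference for which no test was run.

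The levels of the 2 Pol III subunits were compared at both copies in a fit over all stretches, and no difference passed the test (limma with Benjamini-Hochberg adjustment, all 12 libraries, coverage scaled by file totals). The RPC1 minus RPC4 log2 difference was 0.01 (SE 1.79, adjusted p = 1.00) at the Elf1-intron stretch and 0.36 (SE 1.18, adjusted p = 1.00) at the Ccdc115-side stretch. Of 478 stretches tested 0 were called (0%), with 2 at an unadjusted p under 0.05. The fit takes 1 spread per stretch from all 6 groups, the shallow input and H3K36-titled libraries included. Fitted without the other 8 libraries, RPC1 against RPC4 called 52 stretches, among them the Ccdc115-side stretch (0.36, limma adjusted p = 0.0370). The sign of these differences changed with the scaling. With coverage as deposited they were -0.68 and -0.33, beside a median of -0.66 over all stretches.

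H3K36-titled coverage was compared with input in the same fit, a contrast that played no part in choosing the genes. The log2 difference was -0.26 (SE 1.79, limma adjusted p = 0.913) at the Elf1-intron stretch and -3.31 (SE 1.18, adjusted p = 0.0696) at the Ccdc115-side stretch, and neither passed 0.05. Over all 478 stretches 116 passed (24.3%), 18 higher and 98 lower than input, with a median difference of -1.06. At the members these values rest on at most 2 H3K36-titled and 12 input reads per library. Without H3K36-titled replicate 2, whose coverage at the Ccdc115-side stretch is 1 read, the difference there was -5.50 (adjusted p = 5.91e-05), and at the Elf1-intron stretch it turned to 2.19.

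Gene over flanks, the mean coverage of the gene divided by that of its flanks, sets these shapes beside other tRNA genes. It was taken over single-gene tRNA stretches whose flanks averaged at least 5 reads per base. For Pol III the ratio was 2.46 at the Elf1-intron gene and 1.64 at the Ccdc115-side gene, beside a median of 1.98 over 204 stretches. Of these, 181 lay below the former and 34 below the latter. For RPB2 the ratios were 1.56 and 0.819 beside a median of 1.20 over 65 stretches, with 48 and 11 below.

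For the H3K4-titled libraries the gene was lower than its flanks in 109 of 118 stretches (92.4%), with a median ratio of 0.372. The Ccdc115-side gene was among these at 0.514, with 82 stretches below it. The Elf1-intron gene had 1.85, the highest of the 118. That rank includes the nearly empty upstream end of its stretch. Against the downstream flank alone, a measure chosen after the values had been seen, the ratio was 1.11 at the Elf1-intron gene, with 76 of 87 stretches below it, and 0.616 at the Ccdc115-side gene, with 59 below. The Elf1-intron gene was above this flank in replicate 1 (116.8 against 87.6 reads per base) and just below it in replicate 2 (165.4 against 167.5). On that measure 75 of the 87 were under 1 and the median was 0.427. By group averages the RPB2 order turned on the same measure, to 1.19 at the Elf1-intron gene and 2.24 at the Ccdc115-side gene. So did the Pol III order, to 1.81 and 2.13. The RPB2 flank of the Ccdc115-side gene averaged 5.03 reads per base, close to the cutoff of 5. The order did not turn in RPB2 replicate 1 (45.7 against 28.8 at the Elf1-intron gene, 10.3 against 6.67 at the other). Nor did it in RPC4 replicate 2 (189.1 against 132.1, and 166.3 against 127.2).

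**Figure D3:**
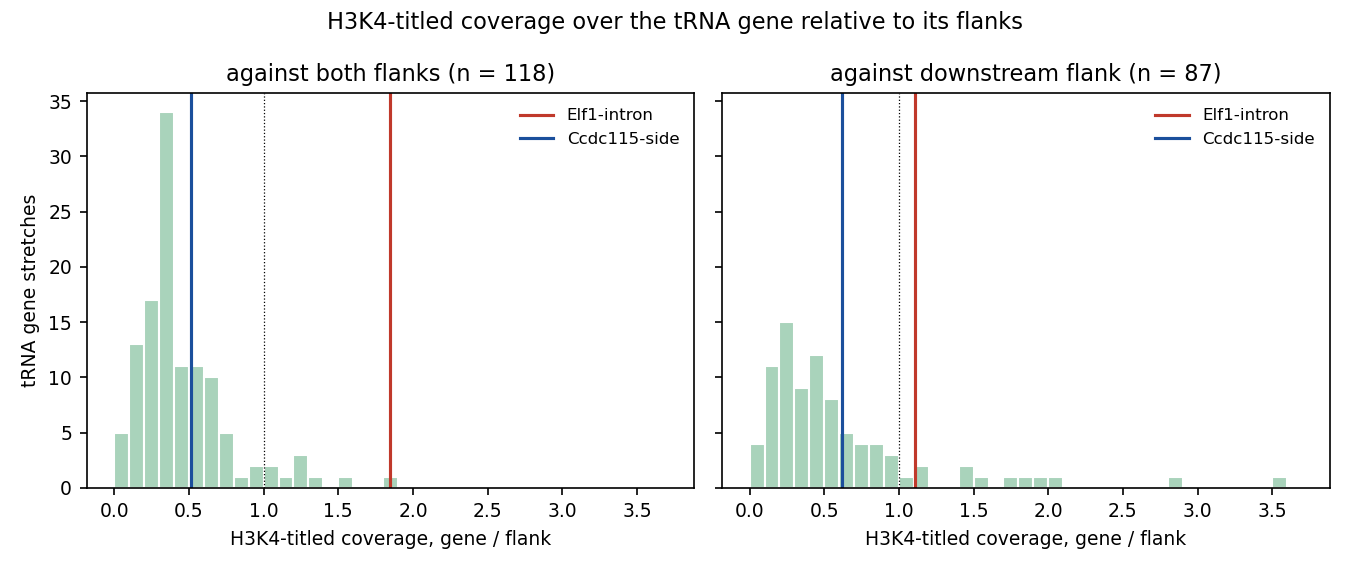
Histograms of H3K4-titled coverage of the tRNA gene divided by that of both flanks (left, n = 118) or of the downstream flank (right, n = 87). Shown are single-gene tRNA stretches with a flank coverage of at least 5 reads per base, and vertical lines mark the Elf1-intron and Ccdc115-side genes. In the H3K4-titled libraries 109 of 118 stretches lie under 1, and the Elf1-intron gene lies at the top at 1.85, a value that falls to 1.11 against the downstream flank alone.

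The other predicted tRNA-Glu (TTC) genes, 6 in number, show how far the isoacceptor itself varies. A sequence that differs from the members by T6C and A66G, positions counted from 1 at the gene's 5′ end and the members' base given first, was present in 4 stretches. These bases face each other in the acceptor stem. The line below shows that gene with the differing bases in capitals.
tRNA-Glu (TTC), 4 copies: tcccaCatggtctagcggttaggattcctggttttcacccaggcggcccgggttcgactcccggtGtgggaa
The remaining 2 stretches, chr3:96150448-96150819 and chr3:96191178-96191549, nearest to Fcgr1 and BC107364, shared a gene with 15 differences from the members and the same coverage as each other in every library.

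Pol III levels of the isoacceptor ranged from high to near absent. The stretch nearest to Nufip1 (chr14:76552431-76552802), a gene for a protein of small nucleolar RNP assembly, had the highest mean, 151.8 reads per base. Next came the one nearest to Atp10a (chr7:65654535-65654906), which encodes a lipid flippase, with 122.8, followed by the Ccdc115-side gene with 114.2 and the Elf1-intron gene with 82.5. The stretch near Btn1a1 (chr13:23555254-23555625), which encodes a milk fat protein, had 27.5, that nearest to Acpp (chr9:104310847-104311218), which encodes an acid phosphatase, had 3.77, and the chr3 pair had 1.56 each. The Atp10a and Ccdc115-side stretches did not differ beyond their spread, with a log2 difference of 0.09 ± 0.13 and the order held in 3 of 4 libraries. The other steps down to the chr3 pair had the same order in all 4 libraries. The Elf1-intron gene stood above the Btn1a1 stretch by 1.66 ± 0.28 on the log2 scale.

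Rank by Pol III and rank by Pol II or H3K4-titled coverage were not the same. For RPB2 the Elf1-intron stretch led with 32.3 reads per base, followed by the Nufip1 stretch with 20.3, the Ccdc115-side stretch with 13.3 and the Atp10a stretch with 9.86, and the others had under 1. Each of these steps among the leading 4 had the same order in both RPB2 libraries. For the H3K4-titled libraries the Elf1-intron stretch had 89.0, the Ccdc115-side stretch 14.8, the Nufip1 stretch 12.0 and the Atp10a stretch 9.03, and the others at most 1.73. Features of the Ccdc115-side gene recurred at the Nufip1 and Atp10a stretches, whose nearest protein-coding gene starts are 41918 and 258851 bp away.

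These were high Pol III coverage and RPB2 weighted to the upstream side. RPB2 averaged 40.9, 12.6 and 3.44 reads per base upstream, in and downstream of the Nufip1 gene copy, and 18.5, 6.08 and 3.04 at the Atp10a copy. They also had an H3K4-titled dip over the gene, with gene over flanks ratios of 0.209 and 0.221. Among the 4 copies with high Pol III, the Elf1-intron gene was thus the one with more RPB2 in and after the gene than before it, by averages that include its nearly empty upstream end.

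**Figure D4:**
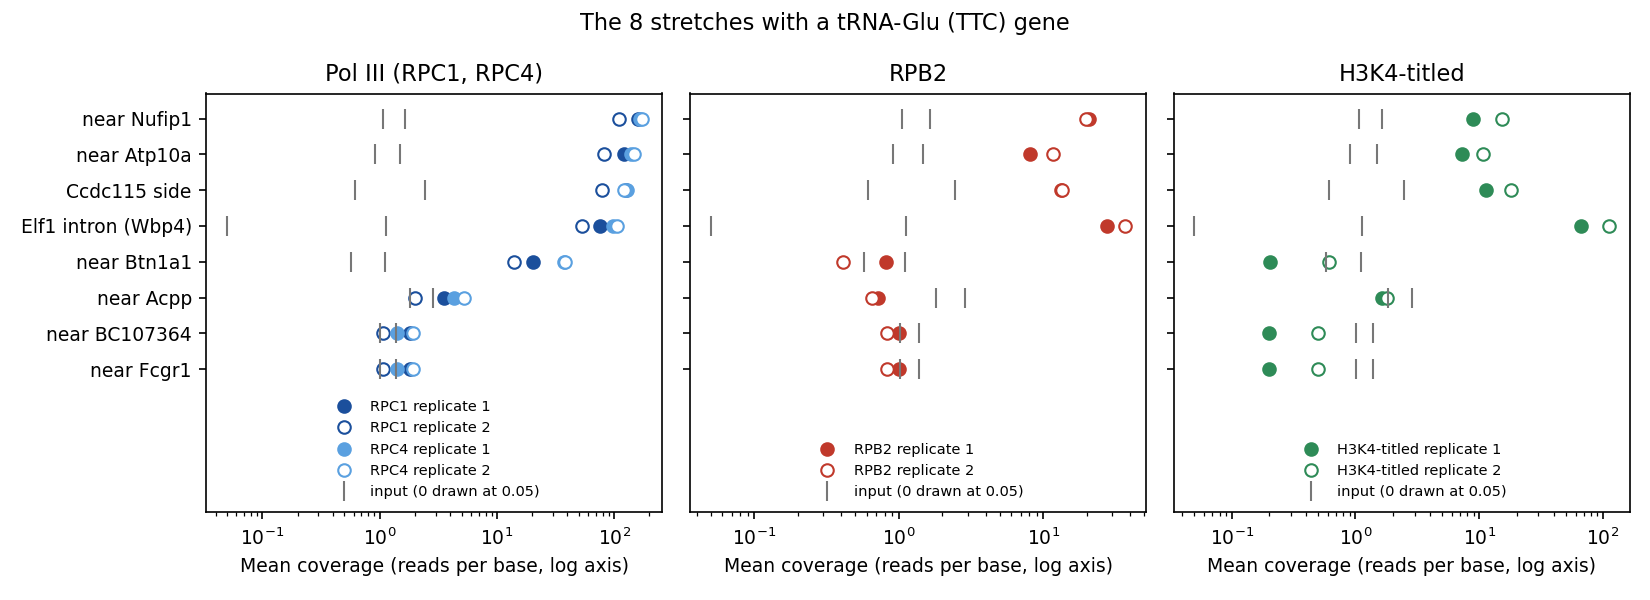
Mean coverage in reads per base (log axis, values of 0 drawn at 0.05) of the 8 stretches with a predicted tRNA-Glu (TTC) gene in each library, by antibody, with the input libraries as grey ticks. The Elf1-intron stretch has less Pol III than 3 others and the highest value by RPB2 and by H3K4-titled coverage, and the stretches near Btn1a1, Acpp, Fcgr1 and BC107364 have RPB2 means under 1.

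As a list, the 8 TTC stretches had median coverages of 55.0 reads per base for Pol III, 5.39 for RPB2 and 5.38 for the H3K4-titled libraries, beside 15.2, 1.90 and 1.26 over all 532. More than 10 reads per base were reached by 5 of the 8 with Pol III, 3 with RPB2 and 3 with H3K4-titled antibody. The 13 stretches with a predicted tRNA-Glu of the other anticodon, CTC, had medians of 43.6, 2.53 and 4.35, and 9, 0 and 2 of them exceeded 10. Divided reads enter both lists. On average over the Pol III libraries, fractional coverage lay on 72.3% to 76.9% of bases at the CTC stretches nearest to Fcgr3. At each stretch of the chr3 TTC pair it lay on 46.2%. The levels of such copies are not separate measurements, and the CTC Pol III median is the value of 1 of them. The highest CTC stretch reached 7.86 for RPB2 and 17.8 for the H3K4-titled libraries, so the Elf1-intron gene exceeded each of the other 20 predicted tRNA-Glu stretches in both. Over all 532 stretches 285, 45 and 91 exceeded 10 reads per base.

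Distance from a protein-coding gene start was set beside the levels in the 379 single-gene tRNA stretches. In the 37 whose middle lies under 1 kb from a start, median coverage was 93.9 reads per base for Pol III, 6.34 for RPB2 and 8.64 for the H3K4-titled libraries. The Elf1-intron stretch was above most of these for RPB2, with 2 higher, and above the rest for the H3K4-titled libraries, with 0 higher, while 21 had more Pol III. In the 42 stretches at 1 to 5 kb the medians were 69.2, 2.81 and 2.96. Of these, 11 exceeded the Ccdc115-side stretch for Pol III, 3 for RPB2 and 7 for the H3K4-titled libraries. Both members thus lay in the upper part of their own distance class by Pol II and H3K4-titled coverage. Medians were 39.1, 2.20 and 2.23 for the 63 stretches at 5 to 10 kb and 2.19, 1.02 and 0.276 for the 237 farther away. Stretches with Pol III coverage over 50 reads per base numbered 27, 22, 26 and 53 in these classes, from nearest to farthest. Among them the Pol III medians were 124.0, 115.8, 87.4 and 109.0. The RPB2 medians were 8.38, 5.77, 4.98 and 4.18, and the H3K4-titled medians 13.5, 7.07, 10.1 and 7.46.

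**Figure D5:**
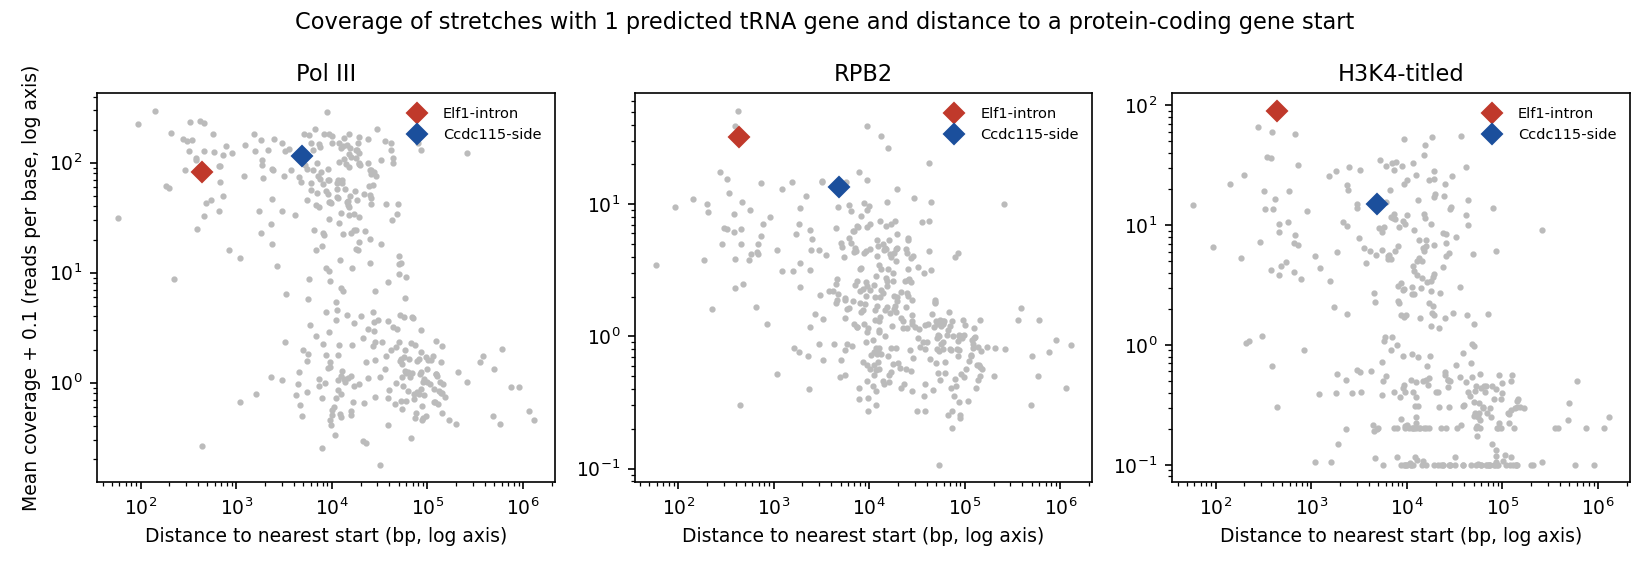
Mean coverage (reads per base, log axis) of single-gene tRNA stretches against the distance from the stretch's middle to the nearest protein-coding gene start (bp, log axis), for Pol III, RPB2 and H3K4-titled libraries, with both tRNA-Glu (TTC) genes marked. The Elf1-intron gene, 435 bp from a start, has the highest H3K4-titled value of the 37 stretches under 1 kb, and the Ccdc115-side gene, at 4824 bp, lies above the median of the 42 at 1 to 5 kb in each panel.

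Stretches with levels most like those of each gene were found by the root mean square difference in log2(coverage + 0.1) over the 10 immunoprecipitated libraries, among 443 other stretches with 1 gene. For the Elf1-intron gene these were a tRNA-Trp (CCA) gene at chr10:90644007-90644378 (difference 0.501), a tRNA-Gln (TTG) gene at chr11:95720336-95720707 (0.687) and a tRNA-Tyr (GTA) gene at chr3:19528205-19528597 (0.781). Their nearest protein-coding gene starts were those of Tmpo at 9433 bp, Gngt2 at 15598 bp and 1700064H15Rik at 276 bp. Thus 2 of these 3 were not near an annotated protein-coding start. The tRNA-Trp gene had 69.0 reads per base for Pol III, 38.6 for RPB2 and 51.7 for the H3K4-titled libraries. For the Ccdc115-side gene they were the tRNA-Glu (TTC) stretch nearest to Nufip1 (0.501), a tRNA-Tyr (GTA) gene at chr14:51709014-51709403 (0.584), 1543 bp from the start of Ang, and a tRNA-Asp (GTC) gene at chr10:90644692-90645063 (0.616), 10118 bp from Tmpo. The members, identical in gene sequence, were 1.60 apart on this measure: the Ccdc115-side gene ranked 27 among the stretches most like the Elf1-intron gene, and the Elf1-intron gene ranked 104 in the reverse order.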

How the data were processed

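The deposited files hold coverage, a signal in reads per base, over 532 stretches common to all 12 files. The build is mm9 per the submitters' processing notes. How the authors aligned reads, or divided those with several matches, is not given in the sources used here. Of stretches listed in only some files, 1 was left out. The genes and lists were chosen with earlier results of these data known. tRNA genes were predicted by a cloverleaf search (at least 17 pairs) on NCBIM37. Within-library ratios used a pseudocount of 0.1. Tests across stretches were made in R 4.3.3 (limma 3.58.1, trended variance) on log2(coverage scaled by file totals + 0.132), two-sided, Benjamini-Hochberg at 0.05, 6 residual degrees of freedom, leaving out stretches at or under the 0.1 quantile of mean coverage (478 kept, both members among them). The scripts were tested on simulated data. Positions, for which an exact permutation over libraries had been planned, are described without a test. Named were the members, coding genes starting within 10 kb, the other TTC stretches and the 3 most alike stretches per member. Alternatives covered scaling, pseudocount, filter, part of the stretch, position measure, replicate block and leaving out each library.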

Additional observations from a re-analysis of the deposited data

How the results depend on the processing

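The log2 ratios of the Elf1-intron to the Ccdc115-side stretch depended on the bases used. For RPC1 the ratio was -0.66 over the stretch, -0.92 over the flanks, -0.15 over the gene and -0.45 for the highest base. For RPC4 it was -0.32 over the stretch, -0.016 over the gene and, with the sign changed, 0.0066 for the highest base. For RPB2 it was 2.00 over the gene, and for the H3K4-titled libraries 2.20 over the flanks, 4.07 over the gene and 1.98 for the highest base. Of H3K36-titled against input, 41 stretches were called with the background-anchored scaling, 338 with coverage as deposited, 42 in a fit of only these libraries and 80 to 205 with 1 library left out. The Elf1-intron difference turned to 0.033 with median-of-ratios scaling and 0.094 with anchored scaling, and ranged from -2.96 to 2.44 with 1 library left out. The Ccdc115-side difference passed the threshold with coverage as deposited (-2.36) and merged regions (-3.39), and ranged from -5.50 to -1.12 with 1 library left out. Of RPC1 against RPC4, a fit of only these libraries called 52 stretches, with 0.36 at the Ccdc115-side stretch. The Elf1-intron difference was -0.0038 with median-of-ratios scaling, -0.25 anchored, -0.68 as deposited, -0.0049 with merged regions and -0.0013 to 0.025 with 1 library left out. The Ccdc115-side difference was -0.33 as deposited. Differences in position from Pol III, with RPC1 and RPC4 pooled, are given by mean, median and highest coverage, in that order. At the Elf1-intron gene they were 9.19, 9.75 and 50.2 bp for RPB2 and 30.9, 33.75 and 57.2 bp for the H3K4-titled libraries. By highest coverage both groups overlapped with Pol III there. At the Ccdc115-side gene they were -39.9, -54.25 and -80.25 bp for RPB2 and -11.3, -44.75 and -168 bp for the H3K4-titled libraries. The -168 bp comes from highest coverage at the upstream end of the stretch. The cause of these shifts was not tested. In all, 118 of the recomputed values kept their direction and side of the threshold or stayed within the replicate spread. Another 19 moved beyond that spread or beyond 1.5 times a count, 11 were counted as changed in sign and 4 newly passed the threshold. The 118 include the position settings, where no exact p under 0.05 was possible. They also include input and H3K36-titled ratios, whose SDs of 3.86 and 2.79 are wide enough to hold a change of sign. Without replicate 1 the input ratio went from -1.95 to 0.78 and the H3K36-titled ratio from 0.37 to -1.61, both counted as within the spread.

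The correlation of deviations between same-numbered libraries was -0.14 to 0.11 over 15 pairs of groups and exceeded 0.1 in 1. Coverage was low, with a median stretch at 1.02 reads per base in both input libraries. The check thus cannot tell if replicate numbers pair the libraries. With a replicate block 101 stretches were called for H3K36-titled against input and 0 for RPC1 against RPC4, and the differences at the members were -0.26 and -3.31, and 0.01 and 0.36. Depth limits the H3K36-titled and input values, which rest on 0 to 12 reads per member and library.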
